A study of Homo sapiens with 3 samples.

Results

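The genes described here are 10 members of the tumour necrosis factor (TNF) receptor family and its ligands, out of 19880 protein-coding genes, and the measurement is where the chromatin remodeller BRG1 was found beside them. BRG1 is the ATPase of the SWI/SNF complex, and it was mapped by chromatin immunoprecipitation and sequencing in wild-type 12Z cells, an established human line of endometriotic epithelium. The study holds 2 BRG1 libraries (replicates 1 and 2, anti-BRG1 antibody) and 1 input library without antibody, all untreated and of the same line, so the design has no second condition. Nothing in the labels says that the replicates came from separate cultures, and agreement between them may be technical. For each gene, peaks were taken from the authors' list of peaks shared by both replicates and from each replicate's own list, when the peak's midpoint lay in the gene body or within 100 kb of it with that gene nearest. The positions nearest to a gene are called its domain. The members were selected on these same peaks, whose positions and folds were known, so the peak counts and folds are a description and were not tested. Of the 10 members, 9 encode receptors, while TNFSF12 encodes a ligand.

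Receptors of the TNF family are membrane or secreted proteins with cysteine-rich extracellular repeats that bind trimeric ligands. Some carry a death domain that recruits FADD and caspases, and others recruit TRAF adaptors and activate NF-kB. In endometriosis TNF is known as an inflammatory cytokine of the peritoneal fluid. TNFRSF12A, also called Fn14, is the receptor of TWEAK, the product of TNFSF12, and its gene is known to respond to growth factors and injury.

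A shared peak was found in the domain of 5 of the 10 members, against 1928 of all 19880 genes (9.7%). The 5 were TNFRSF12A, TNFRSF1B, TNFRSF11B, TNFRSF21 and TNFRSF13B, with 9 shared peaks between them, 5 of which belonged to TNFRSF11B. TNFRSF1A and TNFRSF10B had peaks in replicate lists only, and TNFSF12, TNFRSF10A and FAS had none in any of the 3 lists. TNFRSF12A was the only member with a shared peak whose midpoint lay within 3 kb of a gene end (1 of 10, against 2.01% of all genes), and also the only member with a shared peak midpoint inside its body. Since the choice of members used these lists, nothing further is read from the 5 of 10. The median domain was 64.9 kb long for members and 56.5 kb for all genes. Among the 5 with a shared peak, domains were 257 kb for TNFRSF21, 149 kb for TNFRSF13B and 129 kb for TNFRSF11B. They were 64.0 kb for TNFRSF1B and 3.23 kb for TNFRSF12A. FAS, without a shared peak, had 147 kb.

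**Figure D1:**
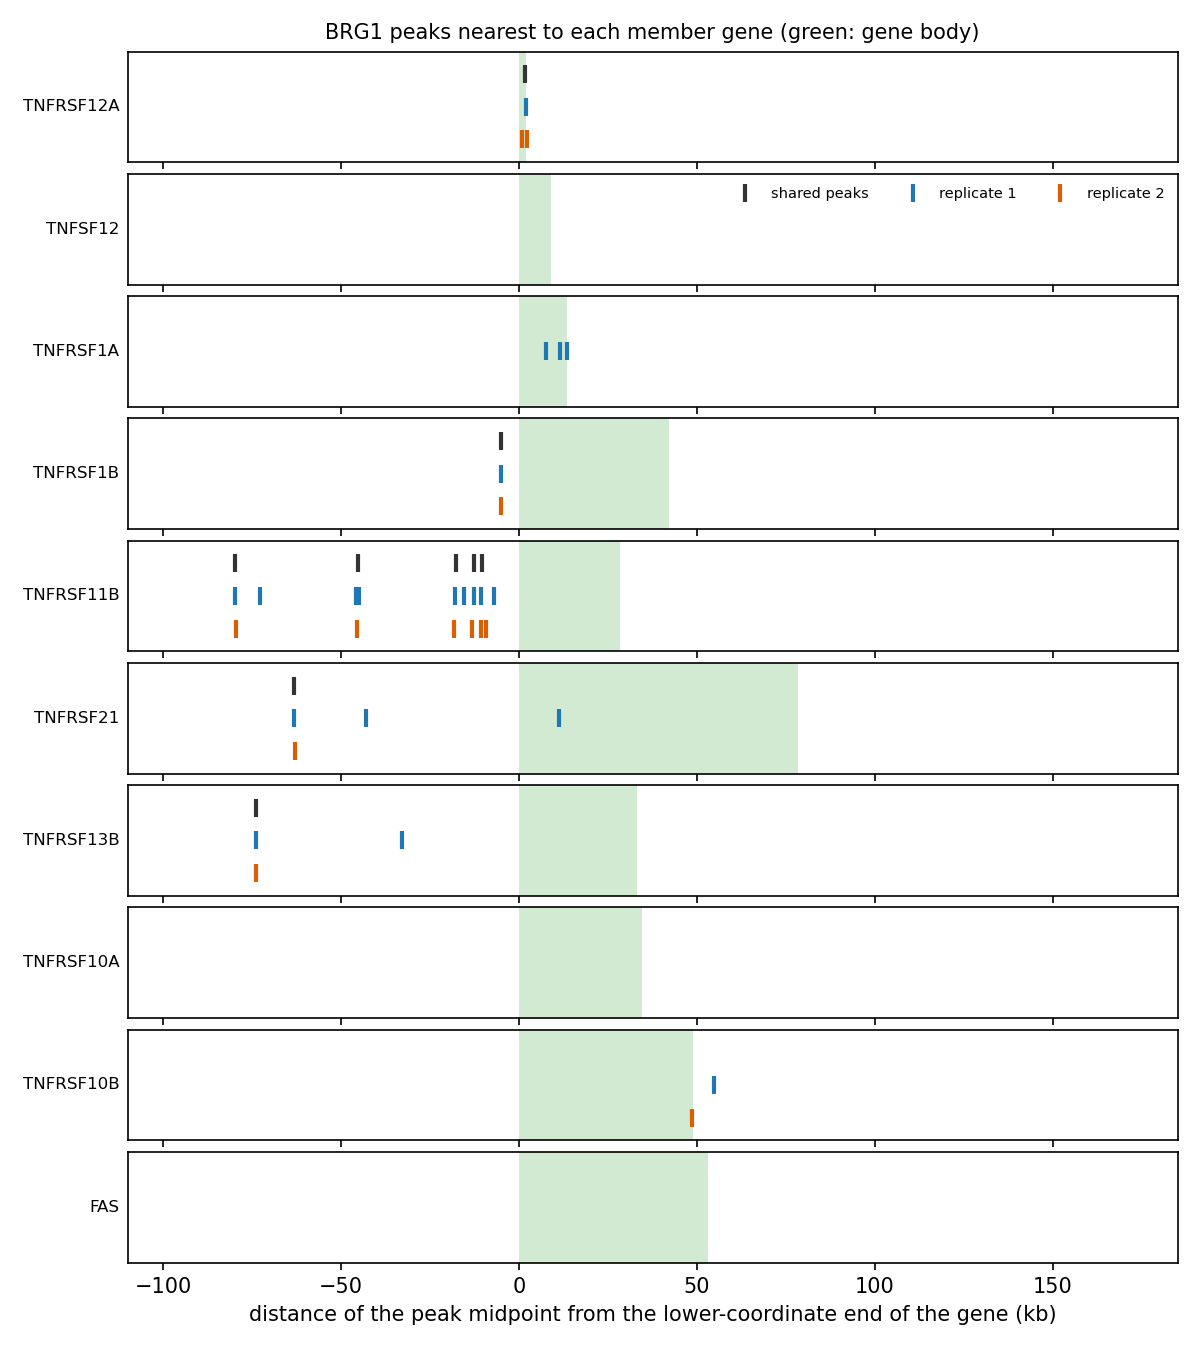
Midpoints of BRG1 peaks (ticks) in the domain of each member, against the distance in kb from the lower-coordinate end of the gene, with shared peaks on the upper line, replicate 1 on the middle line and replicate 2 on the lower line of each panel and the gene body in green. TNFRSF11B held 5 shared peaks, all beyond its lower-coordinate end, and the panels of TNFSF12, TNFRSF10A and FAS are empty.

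Promoter sequences are given for the pair of genes that encode the receptors of TNF itself. They come from RefSeq on GRCh38.p14 and span 250 bases before to 50 after the transcription start. Entries matched 5 of the 10 members (TNFRSF1A, TNFRSF1B, TNFRSF21, TNFRSF13B and FAS). The first is shown because a replicate 1 peak covered 248 of its 300 bases, which are in capitals. That peak stood at the 11.8th percentile of fold in its list, and no shared or replicate 2 peak touched the window. The window lies at chr12:6342027-6342326 on the minus strand.

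TNFRSF1A: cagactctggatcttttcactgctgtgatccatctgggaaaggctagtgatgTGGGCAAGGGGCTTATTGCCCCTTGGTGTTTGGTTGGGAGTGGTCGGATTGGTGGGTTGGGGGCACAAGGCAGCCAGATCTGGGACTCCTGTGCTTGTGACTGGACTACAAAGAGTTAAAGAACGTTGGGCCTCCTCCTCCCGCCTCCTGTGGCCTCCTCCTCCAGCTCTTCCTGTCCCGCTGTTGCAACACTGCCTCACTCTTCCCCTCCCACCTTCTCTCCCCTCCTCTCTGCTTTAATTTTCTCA

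The second, at chr1:12166741-12167040 on the plus strand, is shown because the shared peak of TNFRSF1B stopped 4.92 kb short of its start, so that none of these bases lay in a peak of any list. Capitals mark GC boxes (GGGCGG on either strand), of which 2 share a base here.

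TNFRSF1B: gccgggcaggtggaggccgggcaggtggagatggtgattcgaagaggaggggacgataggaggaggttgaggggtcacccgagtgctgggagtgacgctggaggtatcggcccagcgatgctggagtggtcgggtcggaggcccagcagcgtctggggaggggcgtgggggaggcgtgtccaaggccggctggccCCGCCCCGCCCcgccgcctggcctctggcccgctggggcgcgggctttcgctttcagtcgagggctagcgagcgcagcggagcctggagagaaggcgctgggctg

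Both strands of these windows were searched for 5 motifs. They were AP-1 (TGANTCA, held by 7.71% of 35116 RefSeq promoter windows), TEAD (GGAATG, 14.03%), NF-kB (GGANNTTCC, 4.56%), the GC box (45.0%) and the TATA box (TATAAA, 11.5%). The TNFRSF1A window held none of the 5. It had 4 CpG dinucleotides and a GC content of 55.7%, against 27 CpG and 72.0% in the TNFRSF1B window and medians of 14 CpG and 58.7% over all windows. Among the other members, the windows of TNFRSF21 and TNFRSF13B each held 1 GC box, and the 3 windows of FAS together held 4 GC box matches and 1 AP-1 match, some of them in bases that these windows share. A match is a string of letters and not a bound site.

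TNFRSF12A encodes the receptor of TWEAK. Its shared peak covered 3020793 to 3023060 on chromosome 16, a width of 2268 bp, and the authors gave it a fold enrichment over background of 3.94 and a −log10 q of 5.24. The gene is short, 2.02 kb, and the peak held 78.9% of its body, a share reached by 2 of 19880 genes including TNFRSF12A. Such a share depends on gene length. Counting TNFRSF12A, 1256 genes were as short or shorter, and 18 of those had a shared peak at a gene end. The shared peak of TNFRSF12A began 425 bp inside the lower-coordinate end and ran 677 bp past the higher one.

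The replicates placed their own peaks within that interval but not over the whole of it. Replicate 1 had a single peak of 805 bp at 3021762 to 3022566 (fold 5.03, −log10 q 5.25). Replicate 2 had a peak of 144 bp at 3020954 to 3021097 (fold 3.83, −log10 q 2.36) and a stronger peak of 161 bp at 3022403 to 3022563 (fold 5.06, −log10 q 4.41). The stronger replicate 2 peak lay wholly within the replicate 1 peak, and the weaker overlapped no replicate 1 peak. The common ground of the replicates was therefore these 161 bp, whose midpoint was 0.100 kb beyond the higher-coordinate end of the gene.

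Within its own list, the peak ranked high by fold in each library. It stood at the 99.2nd percentile of fold in replicate 1, and the stronger of the pair at the 98.8th in replicate 2. The shared peak stood at the 90.6th percentile of shared peaks. Of the 378 shared peaks at gene ends, 30 had a fold at least as high and 34 a −log10 q at least as high, counting this peak.

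The interval is not private to TNFRSF12A. HCFC1R1, the next gene on the higher-coordinate side, took up 441 bp of the shared peak, and ends of HCFC1R1 and THOC6 also lay within 3 kb of its midpoint. In replicate 2 the stronger peak had its midpoint 0.100 kb from TNFRSF12A and 0.137 kb from HCFC1R1. The domain of TNFRSF12A spanned only 3.23 kb, and no other shared peak lay within 100 kb of the gene, whatever its nearest gene. Which of these genes the peak belongs to was not tested, and the strand of TNFRSF12A was not used here, so the peak is not assigned to its start or its 3' end.

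**Figure D2:**
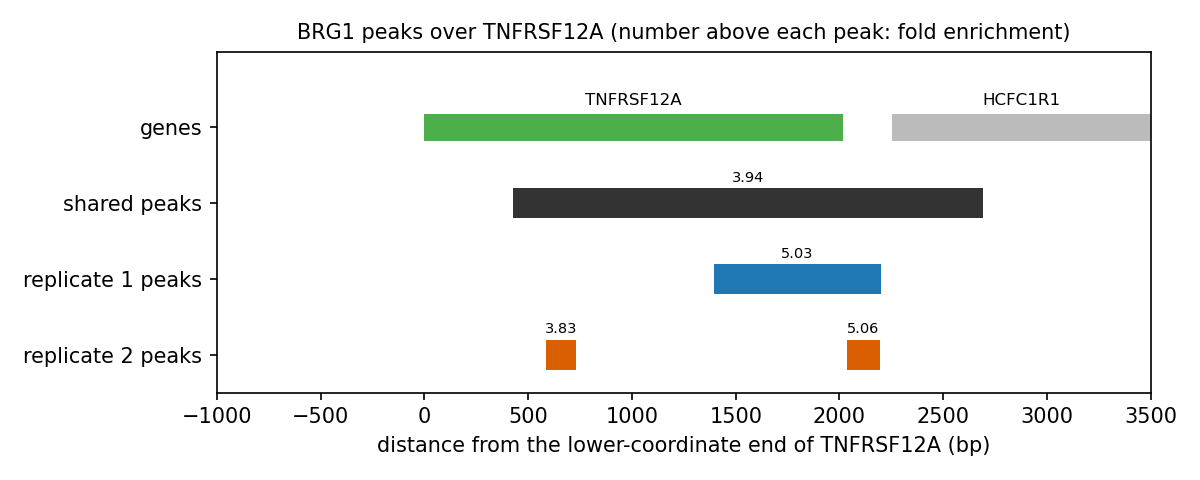
Peaks of the 3 lists over TNFRSF12A (green) and its neighbour HCFC1R1 (grey), against the distance in bp from the lower-coordinate end of TNFRSF12A, with the fold enrichment above each peak. The replicate 1 peak and the stronger replicate 2 peak (folds 5.03 and 5.06) meet near the higher-coordinate end of the gene.

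TNFSF12, the ligand of TNFRSF12A, had no peak in its domain of 26.2 kb in the shared list, in replicate 1 or in replicate 2. Its nearest shared peak lay 285 kb away, beside KDM6B, and its nearest replicate 1 peak 32.7 kb away, beside SOX15. The receptor and ligand of this pair thus differed in that only the receptor gene had a peak.

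TNFRSF1A encodes the broadly expressed death-domain receptor of TNF. It carried 3 peaks in replicate 1 and none in replicate 2, and no shared peak. The replicate 1 peaks lay at 6335984 to 6336644 on chromosome 12 (fold 3.36), at 6340063 to 6340178 (fold 3.40) and at 6341940 to 6342274 (fold 3.05). The last crosses the transcription start, as the printed sequence shows, and the middle one is also within 3 kb of it. All 3 were below the median fold of the replicate 1 list, 3.53, and stood at the 29.5th, 33.7th and 11.8th percentiles. The nearest replicate 2 peak lay 41.9 kb from the gene and belonged to PLEKHG6. Replicate 1 peaks were more common in general, with one at a gene end in 6.7% of genes against 2.91% for replicate 2.

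TNFRSF1B encodes the second TNF receptor, which lacks a death domain and is best known from immune and endothelial cells. A shared peak of 190 bp lay at 12161885 to 12162074 on chromosome 1 (fold 3.94, −log10 q 4.55), and its midpoint was 5.01 kb beyond the 5' end. Replicate 1 had a peak of 124 bp there (fold 3.81) and replicate 2 a peak of 113 bp (fold 4.05), which overlapped by 68 bp. These stood at the 74.3rd and 78.7th percentiles of fold in their lists. Just outside the gene-end window, this peak is the closest to a start among the shared peaks of members with a known strand. The next gene, TNFRSF8, which encodes the receptor CD30, lay 17.8 kb from it. TNFRSF8 itself had 4 peaks in replicate 1 and none in replicate 2.

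TNFRSF11B encodes osteoprotegerin, a secreted decoy receptor that binds RANKL and TRAIL. It held 5 shared peaks, a number reached or passed by 81 of 19880 genes (0.407%). Its domain was long, 129 kb against a median of 56.5 kb over all genes, and this share takes no account of domain length. All 5 peaks lay on chromosome 8 beyond the lower-coordinate end, over a span of 70.8 kb. None was inside the body or at a gene end. The 3 nearest formed a group of 9.1 kb, at 118904651 to 118906668 (fold 3.51), 118909443 to 118912010 (fold 3.30) and 118912505 to 118913745 (fold 3.29), with midpoints 17.9, 12.8 and 10.4 kb from the gene. Of that group's length, 5827 bp lay in shared peaks.

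The more distant pair lay at 118877308 to 118879109 (fold 3.14, 45.3 kb) and 118842946 to 118844264 (fold 3.05, 80.0 kb). Fold was thus higher among the 3 near peaks than in the distant pair, although all 5 stood between the 26.0th and 66.6th percentiles of shared peaks. The 5 shared peaks of the domain were wide, of 1241 to 2568 bp against a median of 926 bp over shared peaks. Their −log10 q lay between 2.27 and 3.47, below the list median of 3.70.

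The replicates resolved the TNFRSF11B peaks differently. Replicate 1 had 9 peaks with folds from 3.34 to 4.01, and replicate 2 had 6 with folds from 3.45 to 3.95. Under the strongest shared peak of the region, the replicate 1 peak of 1566 bp (fold 3.996) contained the whole replicate 2 peak of 841 bp (fold 3.94). At the peak 45.3 kb away, by contrast, replicate 1 had 2 peaks of 205 and 780 bp and replicate 2 a peak of 101 bp between them, and these did not overlap. That shared peak rests on peaks of both libraries that do not meet. A further replicate 1 peak at 118916436 to 118916699 (fold 3.68), at 6.99 kb the closest to the gene, had no counterpart in replicate 2.

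**Figure D3:**
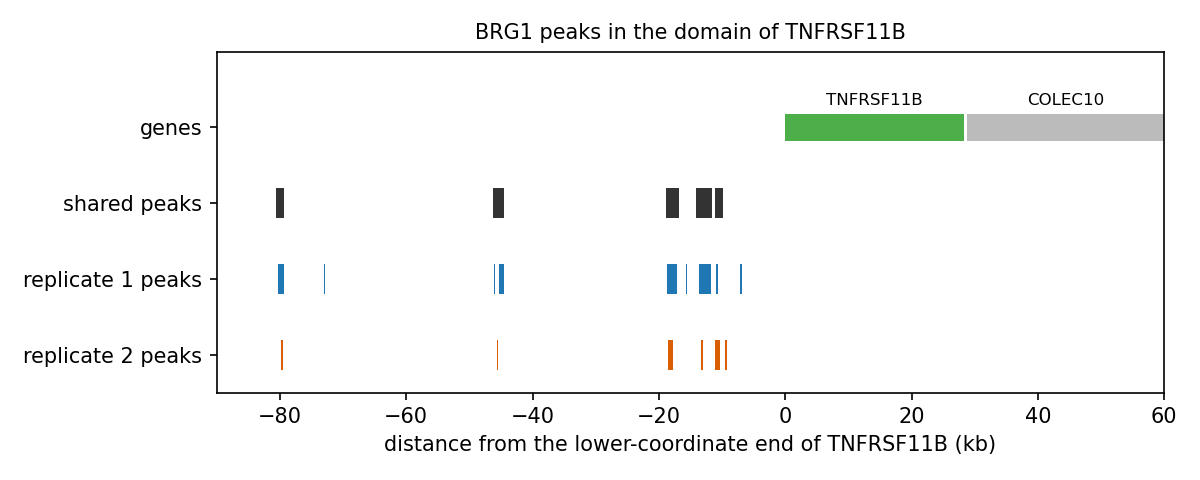
Peaks of the 3 lists in the domain of TNFRSF11B (green, with its neighbour COLEC10 in grey), against the distance in kb from the lower-coordinate end of the gene. A group of 3 shared peaks lies 10.4 to 17.9 kb from the gene and the other peaks at 45.3 and 80.0 kb, none over a gene body.

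Among the members, the peaks nearest to the 100 kb limit lay in this region. Just inside it was the shared peak 80.0 kb from TNFRSF11B (fold 3.05), and just outside it a shared peak at 118807842 to 118809731, 115 kb away (fold 3.39). Beyond the limit and up to 130.0 kb from the gene, 4 more replicate 1 peaks and 1 replicate 2 peak also had TNFRSF11B as their nearest gene. COLEC10 was the next gene for every peak in the domain, and lay 39.1 kb from the midpoint of the nearest shared peak.

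TNFRSF21 encodes death receptor 6. Its shared peak had the highest fold of all peaks of the members in that list, 5.003, with a −log10 q of 8.24, and ranked 24th of 6293 shared peaks. It measured 264 bp, at 47168230 to 47168493 on chromosome 6, and its midpoint was 63.2 kb beyond the 3' end of the gene. In replicate 1 it was a peak of 226 bp (fold 5.26, −log10 q 5.42) and in replicate 2 a peak of 141 bp (fold 5.09, −log10 q 4.36), which overlapped by 121 bp. Both stood high in their lists, at the 99.5th and 98.9th percentiles of fold. ADGRF1, the next gene, was 126 kb away, and a position 63.2 kb from the gene does not by itself tie the peak to TNFRSF21.

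Replicate 1 added 2 TNFRSF21 peaks that replicate 2 lacked. The peak at 47188251 to 47188849 (fold 5.10, −log10 q 5.09) was close in both values to the replicate 1 peak of fold 5.26 at the shared position, and that at 47242627 to 47242912 (fold 3.99) lay inside the gene body. A high fold in replicate 1 was therefore followed by a replicate 2 peak at the distal position and not at the position 43.0 kb from the gene.

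TNFRSF13B encodes TACI, a receptor of BAFF and APRIL that is known from B cells. Its shared peak of 1415 bp lay at 16864375 to 16865789 on chromosome 17 (fold 3.50, −log10 q 4.91), 74.0 kb beyond the 3' end. The replicates overlapped over a longer stretch here than at any other peak of the members, with 1001 bp common to the replicate 1 peak of 1025 bp (fold 4.06) and the replicate 2 peak of 1276 bp (fold 4.13). The next gene, CCDC144A, lay 87.2 kb away on the other side. A replicate 1 peak at 16905987 to 16906555 (fold 4.41), 32.8 kb from the gene, was not found in replicate 2. A separate shared peak 38.9 kb from TNFRSF13B was nearer to MPRIP and was not counted.

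Of the death receptors of TRAIL and FAS ligand, none had a shared peak. TNFRSF10B, which encodes TRAIL receptor 2, had a peak of 549 bp in replicate 2 at 23068556 to 23069104 on chromosome 8 (fold 3.47), with its midpoint 201 bp inside the higher-coordinate end of the gene. Replicate 1 had nothing there, but a peak of 102 bp at 23074773 to 23074874 (fold 3.93), 5.79 kb beyond that end. The replicate peaks did not overlap. TNFRSF10A, which encodes TRAIL receptor 1, had no peak of any list within 100 kb, the nearest being a replicate 1 peak 116 kb away, in the domain of TNFRSF10B. For FAS the nearest shared peak was 267 kb away beside LIPA, and the 2 replicate 1 peaks within 100 kb were nearer to other genes, the closest of them to STAMBPL1, 81.2 kb from FAS.

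Seen by library, replicate 1 held 20 peaks of 7 members and replicate 2 held 12 peaks of 6 members. Among all genes, 20.2% had a replicate 1 peak in the domain and 11.5% a replicate 2 peak. Of the 20 replicate 1 peaks, 8 overlapped a replicate 2 peak by at least 1 bp, and 8 of the 12 replicate 2 peaks overlapped a replicate 1 peak. The same shares over all peaks of each list are not given here, so these counts only describe the members. Counting genes with such an overlapping pair gave the same 5 members as the shared list, against 9.39% of all genes.

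Fold in the members ranged from 3.05 to 5.26 in replicate 1 (median 3.78, against 3.53 for the whole list), from 3.45 to 5.09 in replicate 2 (3.94 against 3.71) and from 3.05 to 5.003 in the shared list (3.50 against 3.33). The −log10 q was at least 5 in 3 of the 20 replicate 1 peaks, in 0 of the 12 replicate 2 peaks and in 2 of the 9 shared peaks, those of TNFRSF12A and TNFRSF21. Over all peaks, 3.08% reached 5 in replicate 1, 5.05% in replicate 2 and 21.5% in the shared list. The lists contain no read counts, so the depth is unknown and none of these values has an error from read sampling.

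**Figure D4:**
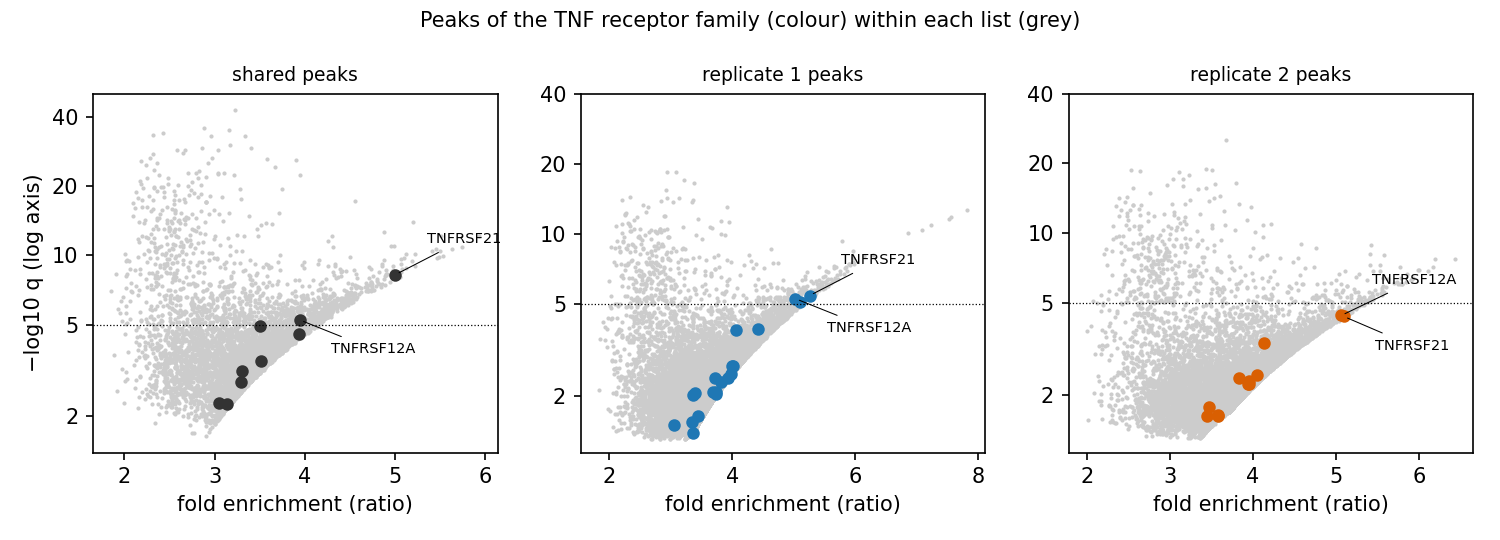
Fold enrichment (ratio) against −log10 q (log axis) for all peaks of each list (grey) and those of the members (colour), with the dotted line at a −log10 q of 5. The strongest peaks of TNFRSF12A and TNFRSF21 lie above those of the other members in replicate 2, at folds of 5.06 and 5.09, and just below the line.

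The rest of the family was counted from lists of 85 genes in all, members included. Of the 20 other TNF receptor genes, 0 had a shared peak in the domain (9.7% of all genes), 4 had a replicate 1 peak (TNFRSF8, TNFRSF11A, TNFRSF19 and CD27, against 20.2% of all genes) and 0 a replicate 2 peak (11.5% of all genes). In the whole receptor family of 29 genes, 5 had a shared peak, and all 5 were members. As members were chosen on these peaks, nothing is read from the 0 in the shared list. TNFRSF6B, which encodes a soluble decoy receptor, had an end within 3 kb of a shared peak that was nearer to ARFRP1. Of the 17 other ligand genes, 1 had a shared peak, against the same 9.7% of all genes. It lay 75.7 kb beyond the 5' end of TNFSF11, the gene of RANKL, which osteoprotegerin binds (chromosome 13, 42486848 to 42487240, fold 4.104). The replicate folds there were 4.12 in replicate 1 and 3.99 in replicate 2.

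Downstream of the receptors, 5 of 26 adaptor and death-signalling genes had a shared peak, against 9.7% of all genes. CFLAR, which encodes the caspase-8 inhibitor c-FLIP, had 4, all inside its body, with folds of 3.09, 4.11, 3.19 and 3.31 in the order of their positions. The first had its midpoint 1578 bp from a gene end, and the peaks of the separate replicates under it did not overlap. The peak of fold 4.11, at 201130517 to 201131019 on chromosome 2, had folds of 4.11 in replicate 1 and 4.92 in replicate 2. BIRC3, which encodes the ubiquitin ligase cIAP2 and is a known NF-kB target, had a peak in its body at 102323811 to 102324454 on chromosome 11 (fold 3.92), with 3.55 in replicate 1 and 4.96 in replicate 2. MAP3K14, the kinase NIK of the non-canonical NF-kB pathway, had 2 in its body (folds 3.44 and 2.94).

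TAB2, an adaptor of the kinase TAK1, had a peak in its body (fold 3.41), and TNFAIP3, the gene of the inhibitor A20, had a peak 34.9 kb beyond its 5' end (fold 3.35). Of the 12 NF-kB genes, 2 had shared peaks, beside 9.7% of all genes. NFKB1 had a peak 71.7 kb beyond its 5' end (chromosome 4, 102429442 to 102429977, fold 4.09). BCL3, which encodes an atypical inhibitor of the IkB family, had 2 peaks, 5.83 kb beyond its 5' end (fold 3.56) and within its body at a gene end (fold 3.16). In all, 8 of these 75 listed genes other than the members had a shared peak (10.7%), a share near the 9.7% of all genes. The members, chosen on these same peaks, were left out of this count. The lists were also chosen with earlier results of these data known, so nothing about the pathway is read from the count.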

How the data were processed

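BRG1 was measured in 2 libraries of 12Z cells and chromatin was fixed with 1% formaldehyde, per the labels' protocols. Per the submitters' processing notes, the build was GRCh38.p12 and the tools included Bowtie2 and MACS2, with trimming by cutadapt and Trim Galore and further steps by Picard, SAMtools and bedtools; no version or setting was given in the sources used here. The authors deposited a broad-peak list per replicate and an overlap list, with a fold (a ratio to background), the −log10 of the p-value and q-value, and a score that was not used. The lists held 17399, 10157 and 6343 peaks (replicate 1, replicate 2, shared). Whether the reads of the replicates were pooled for the overlap list is not stated in those notes. A −log10 q of that list can exceed both replicate values, as at TNFRSF21 (8.24 against 5.42 and 4.36). The input entered as no list of its own.

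Python 3.11.15, numpy 2.4.6, pandas 2.3.3 and matplotlib 3.10.9 were used on chromosomes 1 to 22 and X. Gene names and neighbours came from a RefSeq table of GRCh38.p14, whose patch differs from the authors' build but keeps chromosome positions; 94 readthrough genes were left out, and all 85 listed genes matched. Peak coordinates are the authors', counted from 1. Replicate peaks matched when they overlapped by 1 bp. Members and lists were chosen with earlier results of these data known. All members were named, and every listed gene with a shared peak. Peak assignment was checked on simulated data. No test was run, because members were chosen on these peaks and no other condition exists. Alternatives were another reach, window, overlap, q, nearest-gene rule, and single replicates.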

Additional observations from a re-analysis of the deposited data

How the results depend on the processing

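With a reach of 50 kb, 3 members kept a shared peak (TNFRSF11B, TNFRSF12A and TNFRSF1B), against 8.94% of all genes. The shared peaks of TNFRSF21 and TNFRSF13B are farther. When the −log10 q had to reach 5 in each replicate, 0 members, 0 member peaks, 0 of the 75 other listed genes and 0 gene-end members remained, and 0 members had overlapping replicate peaks; 25 of 19880 genes (0.126%) still had a peak. Asking for 50% of both peaks, shared and replicate, in each replicate left 3 members (TNFRSF13B, TNFRSF1B and TNFRSF21). It left 3 member peaks and 2 other genes (NFKB1 and TNFSF11), against 3.11% of all genes. The wide shared peaks of TNFRSF12A and TNFRSF11B did not meet it. With the replicate peaks compared directly at 50% of both, 4 members remained, TNFRSF11B among them but not TNFRSF12A. The share of all genes was not counted at that setting. Without replicate 1, 6 members had 12 peaks, and 11 of the 75 other listed genes had a peak (14.7%), against 11.5% of all genes. Without replicate 2, 7 members had 20 peaks, and 27 of the 75 had a peak (36.0%), against 20.2% of all genes. The lists were chosen with earlier results known, so these shares were not tested. Gene-end members numbered 2 in either case, against 2.91% of all genes in replicate 2 and 6.7% in replicate 1. They were TNFRSF12A with TNFRSF10B (replicate 2 list) or TNFRSF1A (replicate 1 list). Gene ends judged by any part of the peak, chosen after seeing the data, gave 1 member. Of 28 alternative values, 15 stayed within 1.5 times the reported count. Starts alone as gene ends were not run, because no start was used for TNFRSF12A. No paired analysis was possible because the replicates belong to the only immunoprecipitated group. Without read counts, what depth limits cannot be stated.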
